A study of Mus musculus with 36 samples.

Results

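Voltage-gated ion channel genes were followed in bulk RNA sequencing of mouse hippocampus. Members were taken by symbol, with no measured value: the rows of the gene table named as voltage-gated sodium pore subunits (Scn alpha) and their beta subunits (Scn beta), calcium pore subunits (Cacna1a to Cacna1i), potassium pore subunits of the Kcna, Kcnb, Kcnc, Kcnd and Kcnq families, and the Hcn pacemaker channels. This gave 49 of 50559 genes: 10 Scn alpha, 4 Scn beta, 9 Cacna1, 8 Kcna, 2 Kcnb, 4 Kcnc, 3 Kcnd, 5 Kcnq and 4 Hcn genes. Of these, 47 were among the 25382 genes with enough counts to be tested. The other 2, Kcna7 and Kcna10, reached at most 13 and 14 counts in any library.

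Voltage-gated channels open or close with the membrane potential and set how a neuron fires. Sodium channels carry the upstroke of the action potential, and their beta subunits tune gating and surface expression. Kcna, Kcnb, Kcnc and Kcnd channels repolarise the membrane on different time scales, Kcnq channels carry the slow M-current that limits repeated firing, calcium channels couple voltage to transmitter release and to gene regulation, and Hcn channels carry a current that opens on hyperpolarisation and shapes dendritic integration.

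The study asked how early amyloid and tau pathology, alone and together, alter the hippocampal transcriptome of female mice at 6 months, with and without spatial learning. Mice were wild type (WT), heterozygous for a human APP transgene (Sw,Ind mutations, J9 line, under a PDGF-B promoter), carriers of human P301S tau (Tau, PS19 line, whose transgene is driven by the mouse prion protein promoter), or both (APP/Tau), on C57BL/6. All groups, WT included, also carried Pvalb-IRES-Cre and 1 RiboTag allele, which tags ribosomes in parvalbumin neurons; only the input fraction, RNA of the whole cleared lysate, was sequenced. Naive mice stayed in the home cage, and trained mice swam 6 trials a day for 5 days in the Morris water maze, with a probe test 24 hours later and dissection 2 hours after it. There were 6 naive and 5 trained WT libraries, 5 and 3 APP, 4 and 4 Tau, and 6 and 3 APP/Tau. Nothing in the labels ties a library to its own mouse, and p-values therefore reflect only library-to-library spread, some of which may be technical. In bulk tissue, fewer cells of a type and less RNA per cell cannot be told apart.

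Library totals ran from 69.2 to 124.8 M counts (M for mega). Prnp, the prion protein gene, served as a check of the Tau labels: it read 728 to 879 CPM (counts per M of the scaled library total) in all libraries not labelled Tau and 1423 to 2142 in 16 libraries labelled Tau or APP/Tau. The library labelled Tau trained replicate 4 read 846, so its label is in doubt. Usp16, used as a check of the APP labels, read 12.9 to 14.9 CPM in every library labelled APP or APP/Tau and 24.8 to 30.3 in every other library. WT trained replicate 4 stood apart in striatal markers, with a summed level of 572 CPM over the 7 markers against at most 162 elsewhere. In what follows, trained Tau means the 4 libraries so labelled, and results are also given without both doubted libraries. The 6 pan-neuronal markers summed to 4754 to 6360.3 CPM and the 5 CA1 pyramidal markers to 441 to 664 CPM over the 36 libraries; no striatal, thalamic or choroid plexus marker was at 0 throughout a group either.

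Most voltage-gated channel genes were well expressed. Mean levels over the 36 libraries were at or above 100 CPM for 23 members, 10 to 100 for 12, 1 to 10 for 7 and under 1 for 7. To compare genes, CPM was divided by exon length from the GENCODE M21 annotation. On that scale the sodium beta subunits Scn2b and Scn3b stood at 62.1 ± 3.46 and 46.8 ± 5.01 CPM per kb (SD over 36 libraries), with Scn4b far lower at 5.50 ± 2.43. Each of these 3 stood above the next in every library.

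Among sodium pore subunits, Scn8a, the channel of the axon initial segment and nodes, and Scn2a, its partner in excitatory axons, were at 26.9 ± 2.46 and 26.1 ± 2.62 CPM per kb. These neighbours in the order did not separate: Scn8a exceeded Scn2a in 26 of 36 libraries. Scn1a, the main sodium channel of parvalbumin interneurons, followed at 11.3 ± 1.55, and Scn3a, best known from the embryonic brain, at 4.81 ± 0.652, each above the next in every library. Scn7a (the sodium-sensing Nax channel) and Scn9a were at 0.626 and 0.425. The muscle channel Scn4a and the sensory neuron channels Scn10a and Scn11a averaged 0.102, 0.0639 and 0.0744 CPM. Scn10a had no count in 10 libraries and Scn11a in 9, where 3 counts, taken as the limit that a 0 allows, stand for 0.0243 to 0.0442 CPM. These limits cover counting error only.

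Calcium channel genes were closer together. Cacna1e (R-type) led at 17.2 ± 2.53 CPM per kb, Cacna1a (P/Q-type) and Cacna1b (N-type), which trigger transmitter release, were at 13.7 ± 1.03 and 13.4 ± 1.18, and the T-type gene Cacna1h was at 12.2 ± 2.21. Cacna1a exceeded Cacna1b in 22 of 36 libraries, so those neighbours overlapped. The other T-type genes Cacna1i and Cacna1g were at 8.32 and 7.71, and the L-type genes Cacna1c and Cacna1d at 6.07 and 5.92, with Cacna1c the higher in 23 libraries. The retinal L-type gene Cacna1f averaged 0.265 CPM.

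Of the potassium channel genes, Kcna1 (50.6 ± 4.62 CPM per kb) and Kcnd2 (30.5 ± 3.00) led their families. Kcna1, an axonal delayed rectifier subunit, made up 49.2% of the Kcna sum, and its partner Kcna2 was next at 23.04. Kcna6 and Kcna4 followed at 15.03 and 10.7, and Kcna3 and Kcna5 at 2.77 and 0.674. Of the Kcnc genes, which allow fast firing, Kcnc4 was at 23.6, Kcnc1 at 22.5 and Kcnc2 at 17.5, and Kcnc4 stood above Kcnc1 in 25 of 36 libraries. Kcnd2, which carries dendritic A-type current in pyramidal cells, held 68.0% of the Kcnd sum, above Kcnd3 at 12.1 and Kcnd1 at 2.22. Kcnb2, a delayed rectifier, stood at 2.08. The M-current genes Kcnq3 and Kcnq5 were at 17.6 and 13.5, and Kcnq1, known from the heart, at 0.103.

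Hcn2 led the pacemaker channels at 42.8 ± 4.31 CPM per kb. Hcn3 was at 2.92 and Hcn4, the thalamic and sinoatrial form, at 0.716, and each of these 3 exceeded the next in all 36 libraries. The plot of levels per exon length shows the libraries of 42 members.

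**Figure D1:**
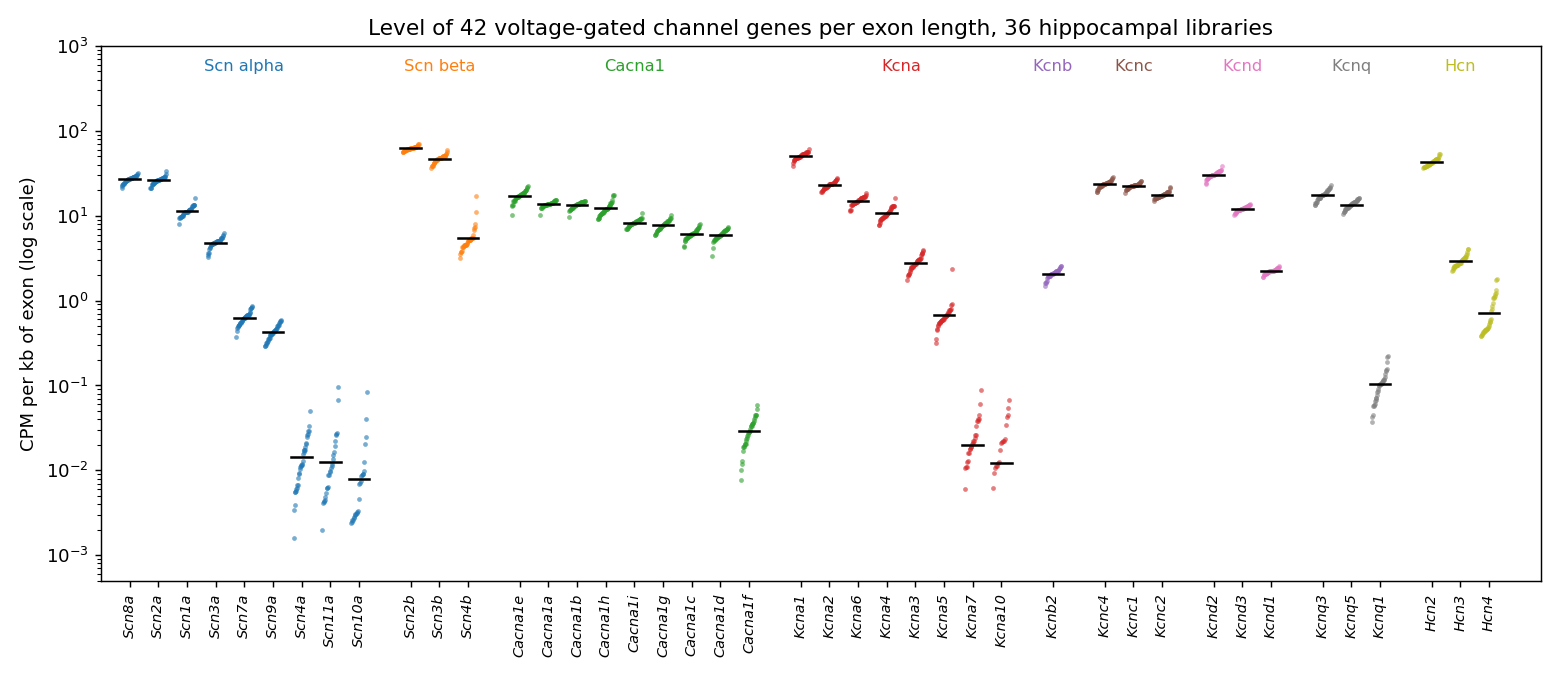
Level of 42 members in CPM per kb of exon on a log axis, by family; points are the 36 libraries (libraries at 0 are not drawn), bars the mean. Among those drawn Scn2b has the highest mean at 62.1, and Scn4a, Scn10a, Scn11a, Cacna1f, Kcna7 and Kcna10 have means at or below 0.0292.

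Some genes that sit side by side on a chromosome had very different levels, and others were close. In the GENCODE M21 order, which is of build GRCm38 and not the build of the counts, Scn3a neighbours Scn2a, and Scn1a, Scn9a and Scn7a stand in a row, at 11.3, 0.425 and 0.626 CPM per kb. Scn2b and Scn4b are neighbours at 62.1 and 5.50, and Kcna5, Kcna1 and Kcna6 stand in a row at 0.674, 50.6 and 15.03. Kcna3, Kcna2 and Kcna10 form another row at 2.77, 23.04 and 0.0123. The neighbours Scn10a and Scn11a were both near absence, at 0.00802 and 0.0125. Exons of 11 members overlap a gene on the opposite strand in that annotation, among them Cacna1a, Cacna1d, Cacna1h, Hcn3, Kcna6, Kcnd3, Kcnq1, Kcnq5 and Scn9a. Whether counting used strand is not given in the sources used here, so these values may hold reads of the other gene, and reads shared among the similar Scn or Kcna sequences may be split.

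The median SD of log2 CPM within groups was 0.17 for the 47 tested members, against 0.25 for all genes tested, and 35 members lay below that all-gene median. Among genes at or above 10 CPM it was 0.14 for the 35 members and 0.12 for all 10743 genes. Among members at or above 1 CPM, Hcn4, Kcna5 and Scn4b were among the 4 whose log2 CPM varied most over the 36 libraries. Hcn4 ran from 2.31 to 10.9 CPM, Scn4b from 15.7 to 83.9 and Kcna5 from 0.899 to 6.80. For Scn4b and Kcna5 the highest library was WT trained replicate 4, the library rich in striatal markers.

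These members moved with markers of tissue that borders the hippocampus. A marker score is the mean log2 CPM of a marker list minus its mean over libraries; values were centred within groups, p-values came from 100000 permutations within groups, and adjustment ran over 912 relations (47 members and their median, against 18 marker lists and a length measure). A p of 1e-05 is the smallest these permutations can give. Hcn4 followed the 7 thalamic and habenular markers (Pearson r = 0.89, Spearman rho = 0.85, permutation p = 1e-05 and 1e-05, adjusted 0.00228 and 0.00261, r = 0.86 without the 2 libraries farthest from the median score). So did Scn4b (Pearson r = 0.84, Spearman rho = 0.85, permutation p = 1e-05 and 1e-05, adjusted 0.00228 and 0.00261, r = 0.82 without the 2 libraries farthest from the median score) and Hcn2 (Pearson r = 0.67, Spearman rho = 0.61, permutation p = 0.000880 and 0.00126, adjusted 0.0187 and 0.0267, r = 0.60 without the 2 libraries farthest from the median score). Kcna5 followed the 7 striatal markers (Pearson r = 0.84, Spearman rho = 0.80, permutation p = 6.0e-05 and 2.0e-05, adjusted 0.00456 and 0.00261, r = 0.78 without the 2 libraries farthest from the median score). Over the 47 members, 36 positive and 16 negative relations had an adjusted p under 0.05 for both r and rho. Of these, 12 positive and 1 negative were with the length measure and not with a marker list. The same relations were not computed for other genes, so no share over all genes can be set beside these counts. No marker of the thalamic or striatal list was at 0 in any library: the thalamic list summed to 115 to 355 CPM and the striatal list to 91.8 to 572.

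Several members followed or opposed markers listed for hippocampal cell types. The parvalbumin interneuron score reached 0.75 in WT trained and 0.61 in APP/Tau trained libraries. In those groups the striatal score reached 2.61 and the thalamic and habenular score 1.07, respectively. The part of bordering tissue in the relations below was not tested. Scn1a, Kcna2 and Kcna6 followed 6 parvalbumin interneuron markers (r = 0.61, 0.65 and 0.64; rho = 0.63, 0.65 and 0.61; permutation p = 7.0e-05, 0.000520 and 0.000660 for r and 5.0e-05, 0.000330 and 0.000450 for rho, adjusted 0.00483, 0.0139 and 0.0161 for r and 0.00497, 0.0120 and 0.0152 for rho; r = 0.56, 0.63 and 0.56 without the 2 farthest libraries). Scn3b, Kcnq3 and Kcnd2 followed 6 dentate granule markers (r = 0.68, 0.62 and 0.59; rho = 0.62, 0.66 and 0.66; permutation p = 0.000110, 0.000190 and 0.00140 for r and 0.000670, 5.0e-05 and 0.000330 for rho, adjusted 0.00497, 0.00693 and 0.0241 for r and 0.0197, 0.00497 and 0.0120 for rho; r = 0.61, 0.60 and 0.58 without the 2 farthest libraries). Scn2a, Scn3a, Kcna4 and Kcnb2 ran against 6 microglial markers (r = -0.62, -0.57, -0.54 and -0.60; rho = -0.55, -0.58, -0.55 and -0.61; permutation p = 0.000250, 0.000370, 0.00100 and 0.000780 for r and 0.00190, 0.000610, 0.000970 and 0.00125 for rho, adjusted 0.00844, 0.0109, 0.0190 and 0.0178 for r and 0.0369, 0.0185, 0.0227 and 0.0267 for rho; r = -0.56, -0.56, -0.53 and -0.58 without the 2 farthest libraries). Scn7a ran against 5 CA1 pyramidal markers (Pearson r = -0.63, Spearman rho = -0.65, permutation p = 3.0e-05 and 0.000220, adjusted 0.00304 and 0.0106, r = -0.60 without the 2 libraries farthest from the median score).

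The members also moved together with the balance of long against short transcripts. This balance is the median log2 deviation of 2283 other genes with at least 8 kb of exon minus that of 1060 with under 2 kb. Voltage-gated channel genes are long: 20 of the 35 members at or above 10 CPM had at least 8 kb, against 22.1% of all genes at that level, and their median exon length was 9.76 kb against 4.93. The balance was -0.37 in WT naive replicate 5 and -0.45 in APP trained replicate 2, and -0.10 to 0.17 in the other 34 libraries. These 2 libraries held the lowest value of 18 of the 47 tested members, Cacna1e and Scn8a among them (38.3%, against 16.1% of all genes tested). Of members at or above 10 CPM with at least 8 kb, 15 of 20 were lowest in either library, against 43.6% of the 2283 other genes of that kind. Across libraries the median deviation of the 35 members had r = 0.79 and rho = 0.71 with the balance, and r = 0.65 without those 2. Cacna1d (Pearson r = 0.88, Spearman rho = 0.80, permutation p = 1e-05 and 2.0e-05, adjusted 0.00228 and 0.00261, r = 0.80 without the 2 libraries farthest from the median score) and Scn3a (Pearson r = 0.87, Spearman rho = 0.77, permutation p = 2.0e-05 and 1e-05, adjusted 0.00261 and 0.00261, r = 0.76 without the 2 libraries farthest from the median score) followed it most closely in r. The part that RNA quality or library making had in this was not tested.

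**Figure D2:**
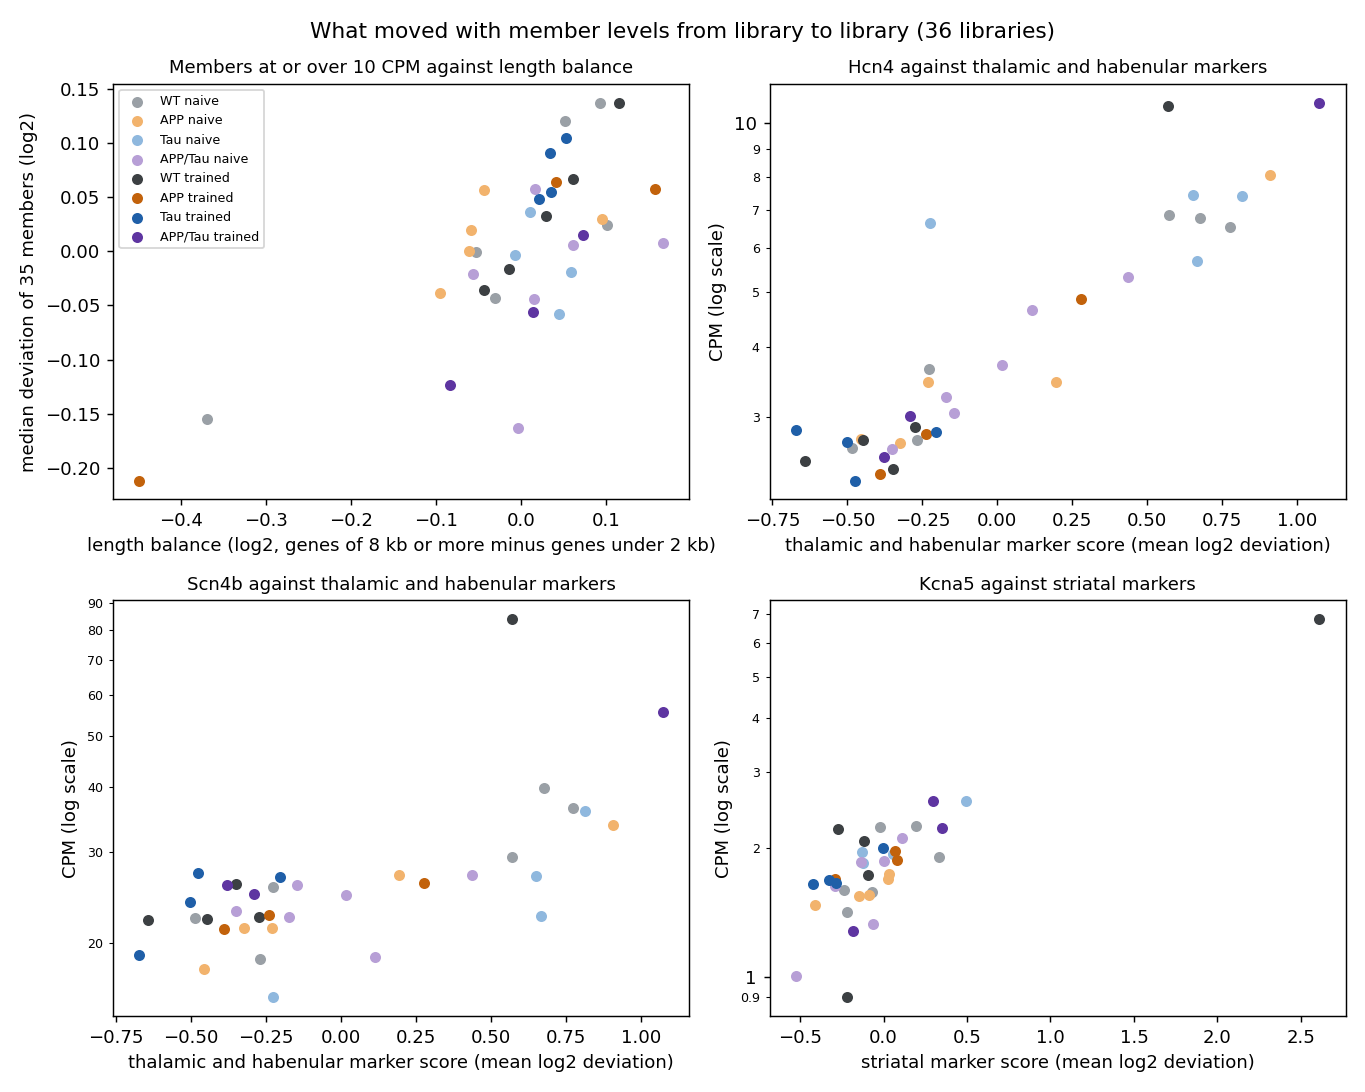
The 36 libraries, coloured by group: the median log2 deviation of the 35 members at or above 10 CPM against the length balance, and CPM (log axes) of Hcn4 and Scn4b against the thalamic and habenular score and of Kcna5 against the striatal score. WT naive replicate 5 and APP trained replicate 2 lie alone at the left of the first panel, and WT trained replicate 4 lies alone at a striatal score of 2.61.

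Group comparisons used edgeR's quasi-likelihood test on all 25382 genes, in 18 contrasts: each transgenic genotype against WT in naive and in trained mice, training within each genotype, non-additivity of APP and Tau, genotype by training, and averages over groups. A gene was called at an adjusted p under 0.05. No member was called in any of the 18 contrasts. The precision behind this was high for expressed members: of the 35 at or above 10 CPM, the 95% interval of the fold lay within 1.5-fold in either direction for 31 to 35 members in each of the 10 comparisons of 2 groups and the 3 averages. It did so for 24 to 34 members in the 5 contrasts of differences. These intervals are not adjusted for the number of genes. Without both doubted libraries 0 members were again called in each of the 18 contrasts. The number with an unadjusted p under 0.05 was 2 instead of 3 for APP, 4 instead of 10 for Tau and 7 instead of 4 for APP/Tau against WT in trained mice. It was 3 instead of 2 for training in WT, 1 instead of 2 for non-additivity in naive and 5 instead of 9 in trained mice, and 3 instead of 7 for Tau by training. It rose to 6 for Tau against WT in naive mice, 1 for training in APP/Tau and 3 for APP/Tau by training. In the averages it rose to 7 for APP carriers, 5 for Tau carriers and 6 for training, and for training in Tau it fell to 12. Over all genes it was 3339 instead of 3870 for Tau and 3282 instead of 2595 for APP/Tau against WT in trained mice. For APP it was 1495 instead of 1482. Training gave 1732 instead of 1486 genes in WT, 3465 instead of 3707 in Tau and 827 instead of 780 in APP/Tau. Non-additivity gave 1788 instead of 1810 in naive and 1814 instead of 2383 in trained mice. Tau by training gave 1768 instead of 2294, APP/Tau by training 1456 instead of 1052, and naive Tau 2308 instead of 2363. Averages gave 2586 instead of 2526 for APP, 3637 instead of 3342 for Tau and 2205 instead of 2018 for training. Comparisons against WT share the WT libraries, and comparisons that use the same trained or naive group share it too, so their values are not independent.

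**Figure D3:**
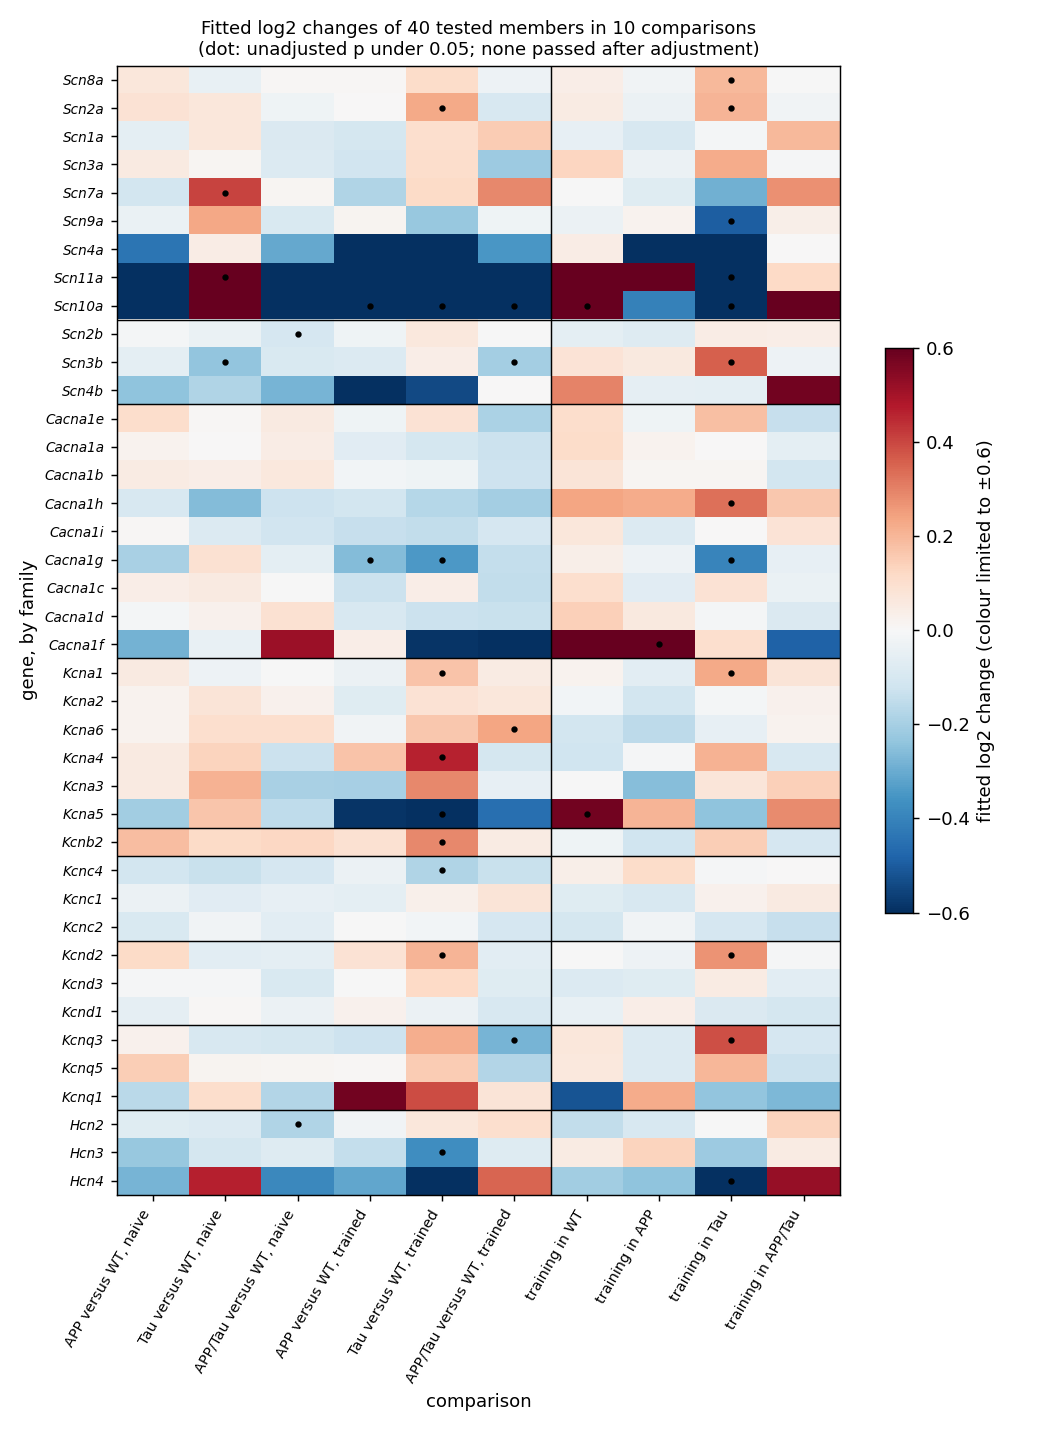
Fitted log2 differences of 40 of the 47 tested members (rows, by family) in the 10 comparisons of 2 groups (columns); red is higher and blue lower in the first-named or trained group, with colour limited at 0.6, and dots mark an unadjusted p under 0.05. Dots are most frequent for Tau versus WT, trained (10) and for training in Tau (12), and none passed after adjustment.

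In naive mice, APP and WT libraries gave no called member. Of 47 members, 0 were called by edgeR (background 0.0355% of all genes) and 0 by DESeq2, and 0 had an unadjusted p under 0.05, where the background was 3.68% of all genes, 1.62% higher and 2.05% lower. The members' median log2 difference was -0.01, against -0.00772 over all genes. The smallest p-values included those of Cacna1g (log2 difference -0.19, SE 0.10, edgeR's adjusted p 1.00) and Hcn3 (log2 difference -0.23, SE 0.12, edgeR's adjusted p 1.00). Kcnd2 was the 1 member whose groups did not overlap (background 0.299%, 0.126% higher and 0.173% lower), with a lowest, median and highest value of 147, 155 and 159 CPM in the 6 WT naive libraries and 159, 162, 169.8, 171 and 173 CPM in the 5 APP naive libraries. The gap between the groups was narrow, and the fitted difference was small (log2 difference 0.12, SE 0.07, edgeR's adjusted p 1.00).

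Naive Tau libraries gave 5 members with an unadjusted p under 0.05, 3 higher and 2 lower, where the background was 9.31% of all genes, 4.87% higher and 4.44% lower; 0 were called by edgeR (background 0.0276%) or DESeq2, and 0 were without overlap (background 1.49%, 0.693% higher and 0.792% lower). Scn3b, a beta subunit that shapes sodium channel inactivation, had a lowest, median and highest value of 226, 267 and 276 CPM in the 6 WT naive libraries against 208, 211, 213 and 257 CPM in the 4 Tau naive libraries. The lowest 3 Tau libraries lay below every WT library and the other lay within them (log2 difference -0.24, SE 0.08, edgeR's adjusted p 0.412). Scn7a had a lowest, median and highest value of 3.25, 4.13 and 5.80 CPM in the 6 WT naive libraries against 4.59, 6.08, 6.23 and 6.38 CPM in the 4 Tau naive libraries, so 3 Tau libraries lay above all WT libraries (log2 difference 0.40, SE 0.14, edgeR's adjusted p 0.412). The CA1 pyramidal score, which Scn7a ran against, was -0.24 to -0.08 in these Tau and -0.03 to 0.15 in these WT libraries, and its part in the value was not tested. Scn11a, with 9, 10, 14 and 47 counts in Tau and 0, 2, 4, 6, 13 and 14 in WT, was another of the 5 (edgeR's adjusted p 0.412). The members' median log2 difference was 0.01.

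Naive APP/Tau libraries gave 2 members with an unadjusted p under 0.05, both lower (background 7.48% of all genes, 3.82% higher and 3.66% lower), and 0 called by edgeR (background 0.067%) or DESeq2. Hcn2 had a lowest, median and highest value of 121, 148 and 172 CPM in the 6 WT naive libraries and a lowest, median and highest value of 121, 129 and 139.6 CPM in the 6 APP/Tau naive libraries (log2 difference -0.18, SE 0.08, edgeR's adjusted p 0.651). Scn2b, the beta subunit linked to the pore by a disulfide bond, had a lowest, median and highest value of 280.1, 291 and 326 CPM in the 6 WT naive libraries and a lowest, median and highest value of 259.8, 279.9 and 292 CPM in the 6 APP/Tau naive libraries (log2 difference -0.10, SE 0.05, edgeR's adjusted p 0.656). Both pairs of groups overlapped, as for every member (background 0.303%, 0.169% higher and 0.134% lower). Cacna1f, at 14, 21, 29, 30, 40 and 46 counts in APP/Tau and 7, 16, 20, 25, 25 and 30 in WT, came next (edgeR's adjusted p 0.719). Of the 47 members, 12 had a fitted value above 0, and the median of all 47 was -0.07 against 0.00134 over all genes. The share of all genes above 0 is not given here. Members moved together with the length balance, so these signs are not independent.

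After training, APP libraries gave 3 members with an unadjusted p under 0.05, all lower (background 5.84% of all genes, 3.64% higher and 2.2% lower), and 0 called by edgeR (background 0.0276%) or DESeq2. Cacna1g, a T-type channel that supports burst firing, had 78.7, 81.1, 84.1, 87.5 and 91.7 CPM in the 5 WT trained libraries and 59.7, 69.0 and 83.1 CPM in the 3 APP trained libraries (log2 difference -0.26, SE 0.12, edgeR's adjusted p 0.837). The highest APP library lay within the WT range, and the lowest was APP trained replicate 2, the library short of long transcripts. Scn10a was the 1 member without overlap (background 2.54%, 1.24% higher and 1.3% lower), with 4, 6, 7, 8 and 57 counts in WT and 0, 2 and 2 in APP (edgeR's adjusted p 0.669); its highest count, 57, was in WT trained replicate 4. No APP or APP/Tau library reached the low-count filter's minimum count of 10 for Scn10a, which entered the test only through WT and Tau libraries. Its lack of overlap is therefore no support for a lower level in APP. The median over members was -0.07, against 0.00842 over all genes. With 1 library left out the median ran from -0.11 to 0.01, so its sign rested on single libraries.

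Trained Tau libraries were next set against trained WT libraries. Of the 47 members, 5 were higher and 5 lower at an unadjusted p under 0.05 (background 15.2% of all genes, 6.64% higher and 8.6% lower), and 0 were called by edgeR (background 0.303%). The 5 higher were the potassium channel genes Kcna1, Kcna4, Kcnb2 and Kcnd2 and the sodium channel gene Scn2a, and the 5 lower were Cacna1g, Hcn3, Kcna5, Kcnc4 and Scn10a. Groups did not overlap for 3 higher members (Kcna4, Kcnb2, Scn2a) and 2 lower (Cacna1g, Hcn3), against a background 7%, 2.95% higher and 4.04% lower.

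Kcna4, an A-type potassium channel subunit of axons, had 39.9, 44.4, 48.3, 49.7 and 53.0 CPM in the 5 WT trained libraries and 54.6, 62.2, 63.1 and 79.2 CPM in the 4 Tau trained libraries. Every Tau library exceeded every WT library (log2 difference 0.46, SE 0.13, edgeR's adjusted p 0.0920). The highest, 79.2 CPM, was the library labelled Tau trained replicate 4. Without both doubted libraries the log2 difference was 0.30 (edgeR's adjusted p 0.361). DESeq2 called Kcna4 with an adjusted p of 0.0344, as did edgeR with the length balance as a covariate, at 0.0430.

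Cacna1g had 78.7, 81.1, 84.1, 87.5 and 91.7 CPM in the 5 WT trained libraries and 59.8, 64.3, 70.3 and 72.3 CPM in the 4 Tau trained libraries. Every Tau library was below every WT library (log2 difference -0.34, SE 0.11, edgeR's adjusted p 0.125). A fit on these 2 groups alone called it, with an adjusted p of 0.0342, and so did the fit with the length balance as a covariate, at 0.0457. In all, these fits called 230 and 501 genes. Without both doubted libraries it was -0.34 (edgeR's adjusted p 0.253). Hcn3 had 11.4, 11.6, 13.3, 13.6 and 16.9 CPM in the 5 WT trained libraries and 9.34, 9.58, 10.9 and 11.4 CPM in the 4 Tau trained libraries (log2 difference -0.37, SE 0.14, edgeR's adjusted p 0.174), where the values of the groups met at 11.4. Scn2a had 299, 321, 339, 340.2 and 357 CPM in the 5 WT trained libraries and 359.9, 369, 396 and 424 CPM in the 4 Tau trained libraries (log2 difference 0.23, SE 0.08, edgeR's adjusted p 0.172), and Kcnb2 had 25.005, 25.7, 29.5, 31.2 and 33.4 CPM in the 5 WT trained libraries and 33.4, 33.6, 36.7 and 37.9 CPM in the 4 Tau trained libraries (log2 difference 0.29, SE 0.11, edgeR's adjusted p 0.203).

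Scn10a, with 0, 0, 6 and 6 counts in Tau and 4, 6, 7, 8 and 57 in WT, and Kcna5, at 1.75 ± 0.166 CPM (SD, n = 4) and 2.74 ± 2.32 CPM (SD, n = 5), had their highest values in WT trained replicate 4. Without both doubted libraries, 4 members had an unadjusted p under 0.05 instead of 10. In these groups the dentate granule markers summed to 365 to 461 CPM in Tau and 243 to 426 in WT. With the dentate granule score as a covariate, 5 members had an unadjusted p under 0.05 instead of 10 (3346 genes in all instead of 3870). The oligodendrocyte precursor and astrocyte scores were higher in Tau without overlap. The 6 pan-neuronal markers summed to 6050 to 6360.3 CPM in Tau and 5013 to 5821 in WT, without overlap. Their scores, at 0.09 to 0.15 in Tau and -0.12 to 0.12 in WT, overlapped. The part of these markers in the members' values was not tested.

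Trained APP/Tau libraries gave 1 higher and 3 lower members at an unadjusted p under 0.05 (background 10.2% of all genes, 6.82% higher and 3.4% lower), and 0 called by edgeR (background 0.0552%) or DESeq2. Kcnq3, an M-current subunit, had 236, 249, 265, 280.4 and 325 CPM in the 5 WT trained libraries and 195, 216 and 259 CPM in the 3 APP/Tau trained libraries (log2 difference -0.28, SE 0.12, edgeR's adjusted p 0.414). Kcna6 had 68.2, 69.6, 84.3, 92.0 and 92.7 CPM in the 5 WT trained libraries and 79.6, 98.5 and 109 CPM in the 3 APP/Tau trained libraries (log2 difference 0.24, SE 0.10, edgeR's adjusted p 0.435). Scn3b had 239.7, 273, 274, 292 and 303 CPM in the 5 WT trained libraries and 215, 250.3 and 254 CPM in the 3 APP/Tau trained libraries (log2 difference -0.20, SE 0.09, edgeR's adjusted p 0.451). Groups overlapped for all of these. Scn10a, at 2, 2 and 6 counts in APP/Tau, was the other lower member (edgeR's adjusted p 0.359). It passed the low-count filter only through WT and Tau libraries. Kcnc4 was the 1 member without overlap (background 6.3%, 3.99% higher and 2.31% lower), with 87.3, 90.1, 91.1, 95.4 and 100.3 CPM in the 5 WT trained libraries and 82.7, 84.0 and 86.9 CPM in the 3 APP/Tau trained libraries (log2 difference -0.14, SE 0.10, edgeR's adjusted p 0.686). The median over members was -0.10, against -0.00813 over all genes. In the same groups the oligodendrocyte score was 0.18 to 0.39 in APP/Tau and -0.47 to -0.16 in WT, and the astrocyte, oligodendrocyte precursor and ependymal scores were also higher in APP/Tau without overlap; 0 of these markers were called. Their part in the members' values was not tested.

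Training was then compared within each genotype, and no gene of the whole table was called in any of the 4 comparisons by edgeR. In WT, 2 members were higher at an unadjusted p under 0.05 and 0 lower (background 5.85% of all genes, 3.05% higher and 2.81% lower), and 0 members were without overlap (background 0.335%, 0.138% higher and 0.197% lower). For both the highest library was WT trained replicate 4. Kcna5 had a lowest, median and highest value of 1.42, 1.75 and 2.25 CPM in the 6 WT naive libraries and 0.899, 1.73, 2.08, 2.21 and 6.80 CPM in the 5 WT trained libraries (log2 difference 0.58, SE 0.28, edgeR's adjusted p 0.845); without that library the log2 difference was -0.08. Scn10a had 0, 2, 2, 2, 6 and 15 counts in naive and 4, 6, 7, 8 and 57 in trained libraries (edgeR's adjusted p 0.840), and its fitted difference of 1.98 was 0.61 without that library. Cacna1f, at 0.227 ± 0.0942 CPM (SD, n = 6) and 0.347 ± 0.104 CPM (SD, n = 5), had the next smallest p (edgeR's adjusted p 0.845). In APP mice Cacna1f was also the 1 member with an unadjusted p under 0.05 (background 5.24% of all genes, 3.42% higher and 1.81% lower), at 0.189 ± 0.0817 CPM (SD, n = 5) and 0.349 ± 0.0827 CPM (SD, n = 3) (edgeR's adjusted p 0.925), and 0 members were without overlap (background 2.56%, 1.36% higher and 1.2% lower). Kcna6 (log2 difference -0.15, SE 0.11, edgeR's adjusted p 0.925) and Cacna1h (log2 difference 0.22, SE 0.16, edgeR's adjusted p 0.925) followed. The value of Cacna1h was -0.03 without APP trained replicate 1. In APP/Tau mice 0 of 47 members had an unadjusted p under 0.05 (background 3.07% of all genes, 1.72% higher and 1.36% lower), and Kcnc2, at a lowest, median and highest value of 122, 126 and 135 CPM in the 6 APP/Tau naive libraries and 106, 117 and 121 CPM in the 3 APP/Tau trained libraries, was the 1 without overlap (background 1.75%, 0.78% higher and 0.973% lower; log2 difference -0.14, SE 0.08, edgeR's adjusted p 1.00). Scn7a (log2 difference 0.27, SE 0.16, edgeR's adjusted p 1.00) and Scn4b (log2 difference 0.58, SE 0.34, edgeR's adjusted p 1.00) had the smallest p-values there; without APP/Tau trained replicate 3 the value of Scn4b was 0.10. DESeq2 called 0 members in these 3 comparisons.

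Training in Tau mice gave the largest number of members at an unadjusted p under 0.05 among the 18 contrasts: 9 higher and 5 lower, where the background was 14.6% of all genes, 6.85% higher and 7.75% lower; 0 were called by edgeR (background 0%). Among the 9 higher were Cacna1h, Kcna1, Kcnd2, Kcnq3, Scn2a, Scn3b and Scn8a, and the 5 lower were Cacna1g, Hcn4, Scn9a, Scn10a and Scn11a. Groups did not overlap for 7 higher members and 3 lower (background 10.7%, 5.65% higher and 5.07% lower). The median over all 47 members was 0.01, against -0.01 over all genes.

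Scn3b had 208, 211, 213 and 257 CPM in the 4 Tau naive libraries and 257, 271, 289.6 and 322 CPM in the 4 Tau trained libraries. The groups touched only through Tau naive replicate 1, the highest naive library (log2 difference 0.36, SE 0.09, edgeR's adjusted p 0.0831). Without that library edgeR called Scn3b, at a log2 difference of 0.44 and an adjusted p of 0.0284, and it called Kcnd2 too. It called 192 genes in all there, where the fit with every library called 0. DESeq2 called Scn3b with all libraries, at 0.0227, among 428 genes in all. Kcnq3 had 210.2, 231, 253 and 271 CPM in the 4 Tau naive libraries and 305, 309.8, 311 and 338 CPM in the 4 Tau trained libraries, with no overlap (log2 difference 0.39, SE 0.11, edgeR's adjusted p 0.123). Kcnd2 had 122, 139, 154 and 174 CPM in the 4 Tau naive libraries and 166, 168, 179.7 and 196 CPM in the 4 Tau trained libraries, with 1 naive library inside the trained range (log2 difference 0.27, SE 0.09, edgeR's adjusted p 0.147).

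Cacna1g had 82.4, 86.6, 87.0 and 95.5 CPM in the 4 Tau naive libraries and 59.8, 64.3, 70.3 and 72.3 CPM in the 4 Tau trained libraries, all trained below all naive (log2 difference -0.40, SE 0.11, edgeR's adjusted p 0.114). DESeq2 called it, at 0.0457, among 428 genes in all. Hcn4 had 5.68, 6.64, 7.41 and 7.45 CPM in the 4 Tau naive libraries and 2.31, 2.71, 2.82 and 2.85 CPM in the 4 Tau trained libraries, again without overlap (log2 difference -1.35, SE 0.47, edgeR's adjusted p 0.184). Scn2a had 308, 339, 345 and 350.4 CPM in the 4 Tau naive libraries and 359.9, 369, 396 and 424 CPM in the 4 Tau trained libraries (log2 difference 0.21, SE 0.09, edgeR's adjusted p 0.253). Scn11a had 9, 10, 14 and 47 counts in naive and 0, 4, 6 and 8 in trained libraries (edgeR's adjusted p 0.157). A fit on these 2 groups alone called 3 members, Cacna1g, Hcn4 and Kcnq3, and 290 genes in all.

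Markers of several cell types and borders differed between the same 2 groups. The dentate granule score was -0.44 to -0.02 in naive and 0.19 to 0.51 in trained Tau libraries, and all 6 of its markers had a higher fitted value. The 7 thalamic and habenular markers all had a lower one, with a summed level of 133 to 326 CPM in naive and 117 to 148 in trained libraries. The 7 choroid plexus markers summed to 1349 to 3705 CPM in naive and 88.7 to 578 in trained libraries. The 6 pan-neuronal markers summed to 5042 to 6153 CPM in naive and 6050 to 6360.3 in trained libraries, with overlap. The part of the pan-neuronal markers in the members' values was not tested. With the dentate granule score as a covariate, the log2 difference was 0.17 for Scn3b, 0.17 for Kcnq3 and -0.36 for Cacna1g, with edgeR's adjusted p 0.584, 0.693 and 0.487. In that fit 4 members instead of 14 had an unadjusted p under 0.05 (2088 genes in all instead of 3707). The score did not overlap between the 2 groups, so the fit cannot tell it apart from training. With the number given to each library as a covariate, Scn3b was at 0.18, and 5 members had an unadjusted p under 0.05 (1614 genes in all). Every trained Tau library has a lower number than every naive one, so that fit cannot tell library order from training. Without both doubted libraries, 12 members had an unadjusted p under 0.05.

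**Figure D4:**
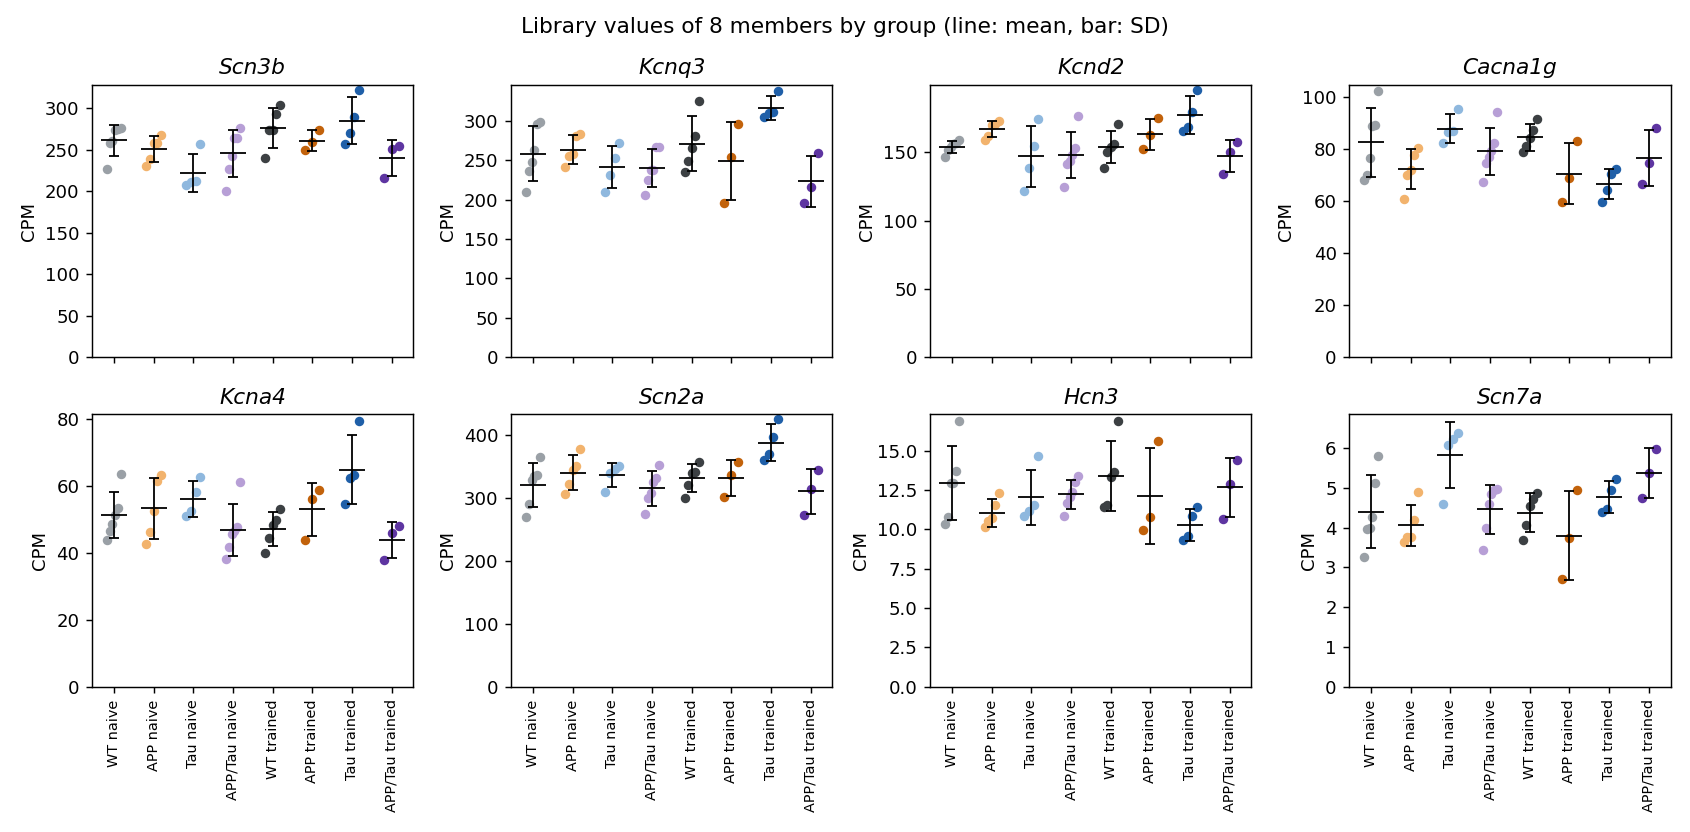
CPM of 8 members in every library by group, with the mean and SD. The 4 libraries labelled Tau trained lie above the 5 WT trained libraries for Kcna4 and Scn2a and below them for Cacna1g and Hcn3, and above the 4 Tau naive libraries for Kcnq3.

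Contrasts of differences gave no call by edgeR or DESeq2. For non-additivity, meaning APP/Tau minus what the 2 single transgenics sum to, naive mice gave 1 member on each side at an unadjusted p under 0.05 (background 7.13% of all genes, 4.3% higher and 2.83% lower). Kcna3 was the 1 below the sum (log2 difference -0.45, SE 0.22, edgeR's adjusted p 0.697), with Scn3b next in p (log2 difference 0.21, SE 0.11, edgeR's adjusted p 0.725). Trained mice gave 4 members above and 5 below the sum (background 9.39% of all genes, 4.76% higher and 4.63% lower; edgeR called 0.0118%). Kcna4 led (log2 difference -0.73, SE 0.21, edgeR's adjusted p 0.422): its means were 47.1 ± 5.05 CPM (SD, n = 5) in WT, 52.9 ± 8.03 CPM (SD, n = 3) in APP, 64.8 ± 10.3 CPM (SD, n = 4) in Tau and 43.8 ± 5.42 CPM (SD, n = 3) in APP/Tau. Kcnd2 (log2 difference -0.35, SE 0.13, edgeR's adjusted p 0.468) lay below the sum and Cacna1g (log2 difference 0.46, SE 0.17, edgeR's adjusted p 0.468) above it.

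For genotype by training, 0 members had an unadjusted p under 0.05 for APP (background 2.67% of all genes, 1.66% higher and 1.01% lower), where Kcnq1, Scn10a and Cacna1i came first with edgeR's adjusted p of 1.00 each. For Tau there were 3 above and 4 below (background 9.04% of all genes, 4.6% higher and 4.44% lower), among them Cacna1g (log2 difference -0.43, SE 0.15, edgeR's adjusted p 0.441), and Scn10a and Scn11a with edgeR's adjusted p of 0.411 and 0.440; without both doubted libraries there were 3 in place of 7. For APP/Tau there was 1 on each side (background 4.14% of all genes, 2.43% higher and 1.71% lower), Hcn2 (log2 difference 0.28, SE 0.13, edgeR's adjusted p 0.981) and Cacna1f (edgeR's adjusted p 0.981), with Cacna1a next (log2 difference -0.17, SE 0.11, edgeR's adjusted p 0.981). Without APP/Tau trained replicate 3 the value of Hcn2 was 0.13. So the response of the members to training was not shown to differ between genotypes.

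Averaging over groups gave the narrowest intervals. All Tau carriers against all non-carriers gave 2 higher and 2 lower members at an unadjusted p under 0.05 (background 13.2% of all genes, 7.29% higher and 5.87% lower), and 0 called by edgeR, where 0.835% of all genes were called. Scn7a was nearest (log2 difference 0.28, SE 0.08, edgeR's adjusted p 0.0794), at 5.82 ± 0.832 CPM (SD, n = 4) in naive and 4.77 ± 0.396 CPM (SD, n = 4) in trained Tau libraries, 4.47 ± 0.617 CPM (SD, n = 6) and 5.37 ± 0.622 CPM (SD, n = 3) in APP/Tau, 4.40 ± 0.914 CPM (SD, n = 6) and 4.38 ± 0.493 CPM (SD, n = 5) in WT, and 4.06 ± 0.522 CPM (SD, n = 5) and 3.80 ± 1.12 CPM (SD, n = 3) in APP. DESeq2 called Scn7a, at an adjusted p of 0.0215, but it also called more genes in all in this contrast than the 212 of edgeR. With 1 library left out, edgeR called Scn7a in 3 fits. These were without WT naive replicate 1 (0.0448), APP/Tau naive replicate 3 (0.0472) or APP trained replicate 3 (0.0203). The neighbours of Scn7a in the gene order, Scn9a and Scn1a, had no unadjusted p under 0.05 in this contrast. Kcna6 (log2 difference 0.15, SE 0.05, edgeR's adjusted p 0.143) and Kcnc4 (log2 difference -0.10, SE 0.05, edgeR's adjusted p 0.318) were also among the 4. In the same contrast all 6 oligodendrocyte and 3 of 7 disease-associated microglia markers were called as higher; their part in the members' values was not tested.

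APP carriers gave 0 higher and 6 lower members (background 9.95% of all genes, 5.41% higher and 4.54% lower; edgeR called 0.0985%): Scn10a and Scn11a near absence, with edgeR's adjusted p of 0.284 and 0.252, Kcnq3 (log2 difference -0.15, SE 0.06, edgeR's adjusted p 0.345), Kcna3, Kcna4 and Kcnd3. No APP or APP/Tau library held over 8 counts of Scn10a or 6 of Scn11a, below the low-count filter's minimum of 10. Both entered the test only through WT and Tau libraries, so their lower values are no support for a fall in APP carriers. Of the 47 members, 5 had a fitted value above 0, with a median of -0.04 against 0.0052 over all genes. With 1 library left out the median was -0.06 to -0.03. The share of all genes above 0 is not given here. Members moved together with the length balance, so these signs are not independent. Training averaged over genotypes gave 3 higher and 1 lower (background 7.95% of all genes, 3.82% higher and 4.13% lower; edgeR called 0%). Cacna1h came first (log2 difference 0.24, SE 0.08, edgeR's adjusted p 0.448), and Scn3b was also among the 3 higher (log2 difference 0.12, SE 0.04, edgeR's adjusted p 0.543). Neither average held a member called by edgeR or DESeq2.

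**Figure D5:**
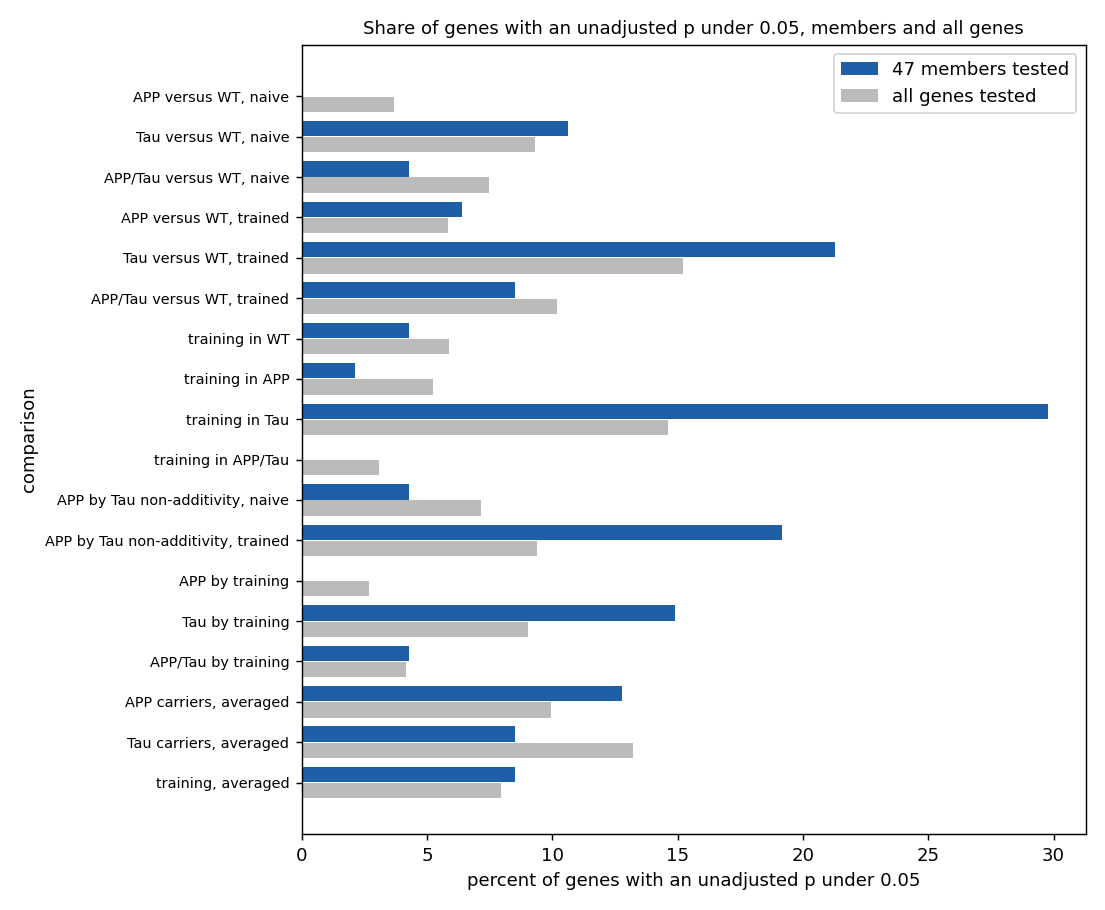
Percent of the 47 members (blue) and of all 25382 genes (grey) with an unadjusted p under 0.05 in each of the 18 contrasts. The members' share exceeds that of all genes most for training in Tau, where it is 14 of 47, and for non-additivity in trained mice, where it is 9 of 47.

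Genes that bind or resemble these channels were read from 2 further lists. Of 34 accessory and anchoring genes, such as auxiliary calcium and potassium channel subunits and axon initial segment scaffolds, 32 were tested, and 1 was called in 1 of the 18 contrasts. Cacnb3, a cytoplasmic beta subunit of calcium channels, fell in Tau carriers on average, by 0.18 on the log2 scale (SE 0.04, edgeR's adjusted p 0.0300, background 0.835%). Of 22 related channel genes, such as the Kcnh, Kcns and Kcng families, 0 were called by edgeR. The nearest were Kcnh3, a slow ether-a-go-go type potassium channel, in Tau carriers (log2 difference -0.21, SE 0.06, edgeR's adjusted p 0.0594) and Kcnv1, a silent subunit that combines with Kcnb channels, in APP carriers (log2 difference -0.26, SE 0.06, edgeR's adjusted p 0.0999). For training in Tau, 11 accessory genes were higher and 1 lower at an unadjusted p under 0.05, of 32, and 5 related genes higher and 2 lower, of 22, against 14.6% of all genes.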

How the data were processed

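Bulk poly(A) RNA of 36 hippocampal input fractions was sequenced in pairs of 150 bp from 100 ng of RNA, with 40 M reads planned, per the labels' protocols. The authors deposited raw counts per gene symbol as whole numbers. Per the submitters' processing notes, Trimmomatic 0.39 and build mm39 were used; the aligner, counter and strand setting are not given in the sources used. Even values made up 54.7% of counts from 1 to 10 and 50.0% of counts over 1000, and totals were 69.2 to 124.8 M (median 85.4), so mates may have been counted apart, which was not tested.

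Counts were fitted with edgeR 4.0.16 in R 4.3.3 (TMM, filterByExpr with minimum count 10 and minimum total 15, 1 mean per group over all 36 libraries, robust quasi-likelihood test), with Benjamini-Hochberg adjustment over 25382 genes in each of 18 contrasts. The fit was tested on simulated data. Exon lengths came from GENCODE M21. Alternatives were DESeq2 1.42.0, RLE size factors, no filter, a replicate block, library number, only the groups compared, and leaving out each library; the dentate granule and length covariates and the fits without 2 doubted or 2 short-transcript libraries were chosen after seeing the data.

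Members and lists were chosen with earlier results of these data known. Values are given for the 3 members with the smallest p in each contrast, and for the highest and most variable member of each family, 26 members in all; some members enter the counts but are not reported here by name. Other members are named for their role or were chosen after their values were seen. Correlations used log2 CPM with a prior count of 2. Library pairs of the same group gave a chi-square per degree of freedom of at least 13.3, and 0 of 68 pairs were identical.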

Additional observations from a re-analysis of the deposited data

Results flagged for a closer look

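In groups of 4 to 6 libraries, each of 26 members was checked for 1 library far from the rest; chance alone gives about 1 in 20 groups such a library, and 18 of 156 member and group pairs had one, in 10 members. These 26 were named partly for their variability or their small p-values, so this count cannot be read against that rate. Of the 18, 5 were WT trained replicate 4.

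That library was highest in its group for Hcn2 at 160.4 CPM (others 118 to 129), Hcn4 at 10.7 (2.42 to 2.88), Kcna5 at 6.80 (0.899 to 2.21), Scn4b at 83.9 (22.1 to 25.96) and Scn10a at 0.676 (0.0545 to 0.101). It also had the striatal score of 2.61. In APP naive replicate 2, Hcn4 was highest at 8.07 CPM (others 2.70 to 3.46) and so was Kcnc2 at 151 (113 to 123). Tau naive replicate 3 was highest for Kcna5 at 2.57 CPM (1.84 to 1.95) and Scn11a at 0.576 (0.0988 to 0.160), and lowest for Kcnc2 at 118 (134 to 135). Tau naive replicate 1 was highest for Scn3b at 257 CPM (208 to 213) and lowest for Scn7a at 4.59 (6.08 to 6.38).

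Tau trained replicate 2 was highest for Kcna5 at 2.00 CPM (1.65 to 1.69). APP/Tau naive replicate 2 was highest for Kcnc2 at 135 CPM (122 to 127), and APP/Tau naive replicate 6 lowest for Scn8a at 355 (417 to 452). WT naive replicate 6 was lowest for Scn3b at 226 CPM (258 to 276), and WT naive replicate 3 highest for Scn10a at 0.164 (0 to 0.0603). APP naive replicate 1 had 0 counts of Scn10a, where the others had 0.0197 to 0.0254 CPM.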

How the results depend on the processing

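The count of 0 called members held in all 18 contrasts with RLE size factors, with no low-count filter, with library number or the dentate granule score as a covariate, and without the 2 doubted or the 2 short-transcript libraries. For Tau versus WT in trained mice, 2 members were called with the length balance as a covariate (Cacna1g, Kcna4), 1 with only the groups compared (Cacna1g) and 1 by DESeq2 (Kcna4). For training in Tau, 1 was called with the length balance (Kcnq3), 3 with only the groups compared (Cacna1g, Hcn4, Kcnq3) and 2 by DESeq2 (Cacna1g, Scn3b); leaving out 1 library gave 0 to 2, with 2 (Kcnd2, Scn3b) without Tau naive replicate 1, where 192 genes in all were called. For Tau carriers on average DESeq2 called 1 (Scn7a), and leaving out 1 library gave 0 to 1. The same settings moved the calls over all genes. For Tau versus WT in trained mice the 77 became 555 by DESeq2 and 501 with the length balance. It became 428 without the short-transcript libraries, 230 with only the groups compared and 244 with library number. The dentate granule score gave 24, and leaving out the doubted libraries gave 19. For training in Tau the 0 became 428 by DESeq2, 290 with only the groups compared and 72 with the length balance. For Tau carriers on average DESeq2 also called more genes in all than the 212 of edgeR. Leaving out 1 library moved the 77 to between 3 (without Tau trained replicate 1) and 360 (without WT trained replicate 5), and the 212 for Tau carriers to between 65 (without APP trained replicate 1) and 391 (without APP trained replicate 3). The cause was not tested.

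The members' median for APP by training was -0.07 and became 0.0566 without the short-transcript libraries. Kcna5 for training in WT reversed to -0.0815 without WT trained replicate 4 and to -0.0751 without both doubted libraries, with 0.79 as the highest value when 1 library was left out, and Cacna1h for training in APP ran from -0.0255 (without APP trained replicate 1) to 0.39. Leaving out 1 library moved 23 of 49 single-member values by over 1.5 times, and turned the sign of these 2. Of the other values for single members under an alternative, 1397 kept their direction and side of the threshold and 14 passed it.

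Libraries that share a number did not deviate together: the median correlation was -0.01 over 106 such pairs (-0.34 to 0.23) and -0.00096 over 456 others, so the numbers do not pair the libraries. With the replicate block 0 members were called in any contrast, and the calls over all genes for Tau versus WT in trained mice went from 77 to 100. Scn10a, Scn11a and Cacna1f have few counts, so their fitted differences are the least precise. Scn10a and Scn11a passed the low-count filter only through WT and Tau libraries.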
